A study of Mus musculus with 8 samples.

Results

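In F1 blastocysts of the mouse strains C57BL/6 (B6) and castaneus (cast), 26 genes were read almost only from the cast allele, whether cast was the father or the mother. They were chosen by their CAST share, the percentage of a gene's allele-assigned reads that came from cast. After leaving out X-linked genes, a gene needed at least 50 reads summed over the embryos of each cross and a CAST share of at least 90% in each cross, and 26 of the 8382 genes with that many reads met both (0.31%). The mirrored rule, a B6 share of at least 90% in each cross, was met by 201 genes (2.4%). The CAST share chose the genes, so it is described below, with no test of its own.

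The RNA came from single blastocysts of embryonic day 3.5, taken from natural matings and lysed without culture. The forward cross (B6 mother, cast father) had 3 embryos and the reverse cross (cast mother, B6 father) had 5, which are numbered 1, 2, 3, 5 and 7. Every embryo was one library, no embryo was treated, and all carried one genome of each strain. The embryos were not matched for sex, and the cross is confounded with the strain of the mother, so that maternal strain and parental origin cannot be told apart in total levels.

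Each embryo had between 1060063 and 1632695 reads over a single nucleotide polymorphism (SNP) between the strains, and 57.4 to 58.3% of them were from B6. All 8 trophectoderm, 5 epiblast and 4 primitive endoderm markers examined were detected. Reverse embryo 1 stood apart, with 1317 CPM (reads per 1000000 SNP-covering reads of the embryo) summed over the trophectoderm markers against 3945 to 4168 CPM in the other reverse embryos and 4220 to 5270 CPM in the forward embryos. Forward embryo 1 had 682 CPM of 5 leukocyte markers against 34.7 and 36.0 in the other forward embryos and 2.0 to 5.32 in the reverse embryos. The number of genes that met the rule was 25 without reverse embryo 1 and 19 without forward embryo 1, of which 24 and 17 were among the 26.

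Reciprocal crosses separate 2 kinds of allelic expression. A gene that is expressed by parental origin, such as an imprinted gene, changes the strain it is read from when the parents are exchanged. A gene whose reads follow the strain keeps the same allele in both crosses, and the rule picks out genes of this second kind. Of 70 genes with a CAST share of at least 90% in the forward cross, 26 also had it in the reverse cross, 31 were at 10% or less there (read from the father in both), and 13 lay between. Of 37 genes at 90% or more in the reverse cross, 1 was at 10% or less in the forward cross.

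**Figure D1:**
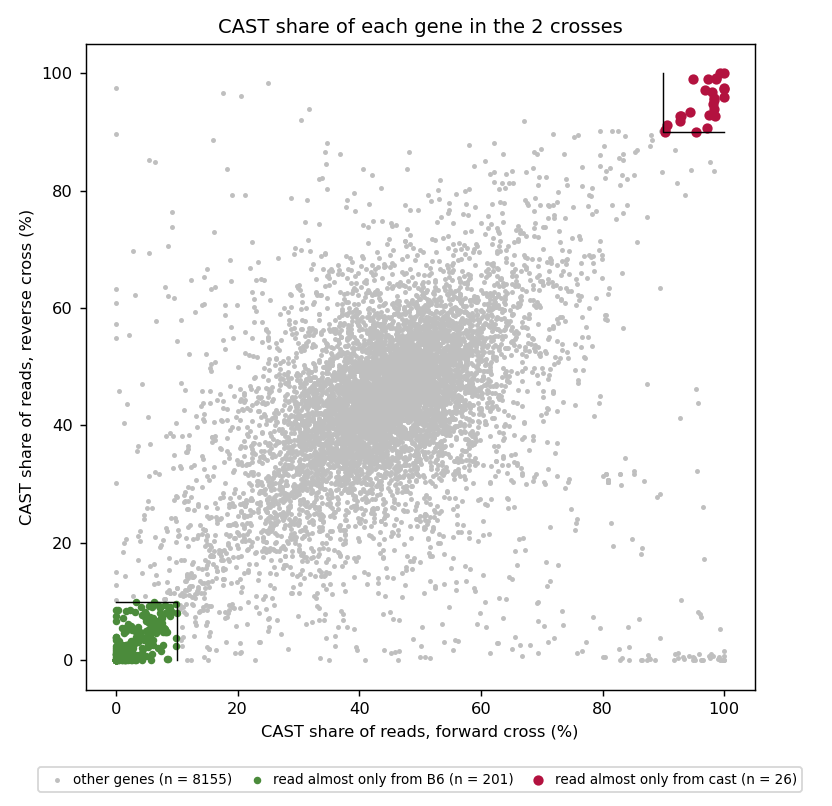
CAST share of reads (%) of 8382 genes in the forward cross (x axis) and the reverse cross (y axis), 1 point for each gene. The 26 genes read almost only from cast are in the upper right corner and the 201 genes read almost only from B6 in the lower left, with black lines at the 90% and 10% limits.

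The gene starts of 4 members are shown because they hold the letters of the allele that was rarely read: the reference genome is B6, and cast letters were not used here. Each line gives the 250 bases before the RefSeq start (build GRCm38.p6), written 5′ to 3′ on the strand of the gene, with capitals marking 4 short promoter motifs on either strand, which are spelled out after the lines. Pyy was among the most completely cast-read genes with many reads, Fxyd4 had many reads and lay close to the limit, Syt14 had almost no B6 read, and Krtdap was at the limit.
Pyy (chr11:102107833-102108082, minus strand): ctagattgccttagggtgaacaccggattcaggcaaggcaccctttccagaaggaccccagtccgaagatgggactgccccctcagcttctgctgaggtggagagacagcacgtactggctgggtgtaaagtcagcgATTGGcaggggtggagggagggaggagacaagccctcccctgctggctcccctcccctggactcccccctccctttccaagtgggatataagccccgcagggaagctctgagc
Fxyd4 (chr6:117937336-117937585, minus strand): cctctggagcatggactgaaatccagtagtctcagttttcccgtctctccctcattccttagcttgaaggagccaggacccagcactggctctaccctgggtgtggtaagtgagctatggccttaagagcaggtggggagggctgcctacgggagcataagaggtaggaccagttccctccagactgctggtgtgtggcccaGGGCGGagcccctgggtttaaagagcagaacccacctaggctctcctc
Syt14 (chr1:193035776-193036025, minus strand): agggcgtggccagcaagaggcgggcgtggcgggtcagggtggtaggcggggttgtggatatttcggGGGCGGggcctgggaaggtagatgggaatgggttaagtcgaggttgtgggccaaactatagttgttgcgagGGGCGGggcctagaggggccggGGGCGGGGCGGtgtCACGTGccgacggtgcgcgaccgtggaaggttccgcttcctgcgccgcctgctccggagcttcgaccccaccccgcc
Krtdap (chr7:30787655-30787904, plus strand): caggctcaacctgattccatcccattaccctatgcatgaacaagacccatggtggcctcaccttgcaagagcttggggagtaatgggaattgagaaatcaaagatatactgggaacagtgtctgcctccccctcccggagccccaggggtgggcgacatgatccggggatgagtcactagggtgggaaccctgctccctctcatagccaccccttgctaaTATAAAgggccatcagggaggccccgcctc
Windows were found for 16 of the 26 members, 21 windows in all, since some genes have several starts. Windows of the same gene can share most of their bases, so the windows counted below are not all separate observations. The letters TATAAA, which TATA-binding protein recognises, were in 2 of the 21 windows, against 12.4% of all 32851 windows and 6.02% of the 8151 windows of genes with enough reads. The letters CCAAT, recognised by nuclear factor Y, were in 6, against 33.8% of all windows and 35.2% of those of genes with enough reads. The GC box GGGCGG was in 8 (38.1%), above the 32.7% of all windows and below the 57.7% of genes with enough reads. The E box with the letters CACGTG was in 2, against 6.02% and 8.44%. The motifs can overlap each other within a window. Of the 21 member windows, 7 held fewer than 5 CpG dinucleotides (33.3%), against 12.8% of the windows of genes with enough reads, and the median was 8 against 16. These letters are a description of the reference sequence, and whether cast differs in them was not examined.

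As a group, the members were read from cast at a median share of 97.7% with a cast father and 95.1% with a cast mother, while the medians of all genes with enough reads were 44.3% and 44.3%. Together they held 1350 B6 and 29022 CAST reads. Reads per gene ran from 121 to 8817 over the 8 embryos with a median of 420.5, against 596 for all genes with enough reads and 529 for the 201 genes of the mirrored rule. Both crosses were at 95% or more for 12 members and at 99% or more for 2, Syt14 and Sgol2b. In single embryos, 173 of 205 values with at least 5 reads were at 90% or more, the median value was 98.3%, and 11 members stayed at 90% or more in every such embryo. Only 7 of these values were under 80% and 1 was under 50%.

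Peptide YY (Pyy), a gut hormone of the neuropeptide Y family, lies on chromosome 11 (102106676 to 102107832, build mm10) and had the most reads. In forward embryos 1, 2 and 3, 6 of 856, 45 of 921 and 2 of 250 Pyy reads came from B6. In reverse embryos 1, 2, 3, 5 and 7, the B6 reads of Pyy were 0 of 196, 0 of 453, 40 of 3371, 5 of 1498 and 24 of 1272. The share was thus above 95% in all 8 embryos, with a lowest value of 95.1% in forward embryo 2 (95% exact Clopper-Pearson interval 93.5 to 96.4%). It averaged 97.9% ± 2.39 (SD, n = 3) with a cast father and 99.3% ± 0.830 (SD, n = 5) with a cast mother. Such intervals cover counting error only, since reads were amplified without molecular identifiers. The related Npy had only 24 and 20 reads in the crosses, too few for the rule.

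Fxyd4, a small regulator of the sodium and potassium pump known from kidney and colon, lies on chromosome 6 (117933559 to 117937692). Its B6 reads were 146 of 991, 63 of 928 and 62 of 953 in the forward embryos. In the reverse embryos they were 110 of 776, 112 of 1456, 85 of 1052, 17 of 713 and 106 of 923. Reads of Fxyd4 assigned to B6 were therefore found in every embryo, and the share ran from 85.3% in forward embryo 1 to 97.6% in reverse embryo 5. The means of the crosses were 90.7% ± 4.67 (SD, n = 3) and 91.2% ± 4.44 (SD, n = 5). Fxyd6, the one relative with enough reads, was at 74.4% and 65.8%.

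Syt14, a synaptotagmin of the membrane-trafficking family, lies on chromosome 1 (192891233 to 193035775). The forward embryos had 1 of 138, 1 of 85 and 0 of 95 Syt14 reads from B6. No B6 read was found among 33, 93, 127, 95 and 62 reads in the reverse embryos, which allows a B6 share of up to 0.732%. Syt17, of the same family, went the other way, with a CAST share of 3.23% (forward) and 0.820% (reverse), and Syt9 was at 22.8% and 60.1%.

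Sgol2b, a shugoshin-like gene of the family that protects centromeric cohesion, was the one member without a single B6 read in either cross. Its CAST reads numbered 21, 45 and 16 in the forward embryos and 127, 55, 25, 49 and 60 in the reverse embryos. With 0 of 82 and 0 of 316 reads, B6 shares of up to 3.66% and 0.949% remain possible. Its paralogs Sgol2a and Sgol1 were read from both alleles, Sgol2a at 49.6% and 54.2% and Sgol1 at 48.1% and 54.9%.

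The other members that work at membranes or outside the cell were the nucleoside transporter Slc28a1, the neurexophilin-like Nxpe4, the transmembrane protein Tmem141, the keratinocyte differentiation protein Krtdap, the protease inhibitor Spink2, known from sperm, and Fam83a, an adaptor of growth factor signalling. Of these, Fam83a was the most uniform, with no embryo under 97.3%. Krtdap lay at the limit, 90.3% and 90.3%, and only 3 of its 8 embryos reached 90%. For Slc28a1 the B6 reads were 14 of 105, 1 of 67 and 3 of 77 in the forward and 12 of 38, 5 of 76, 6 of 86, 3 of 67 and 0 of 50 in the reverse embryos. Reverse embryo 1 was the low one, at 68.4% (interval 51.3 to 82.5%), and the other reverse embryos were at 93.0% or more. Spink2 ranged from 66.7% in reverse embryo 3 to 100%, on 11 to 49 reads in an embryo. Tmem141 reached 100% in 4 embryos and was lowest at 80.6% in forward embryo 3, and the lowest Nxpe4 value was 91.6%.

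Among the enzymes, Dhrs7, a short-chain dehydrogenase, had B6 reads of 11 of 85, 2 of 53 and 2 of 67 in the forward embryos. Its reverse embryos had 14 of 108, 25 of 183, 2 of 227, 8 of 118 and 10 of 173. The crosses were alike, at 92.7% and 92.7%, and 3 embryos were under 90%, the lowest at 86.3%. Sult6b1, a cytosolic sulfotransferase, stayed at 91.4% or more in the 7 embryos with at least 5 reads, and Hddc3, an HD-domain hydrolase, was at 97.4% and 92.9% but went down to 82.6% in reverse embryo 7.

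The last group with known functions had nuclear, structural or cell death roles. Ebf2, a transcription factor of adipocytes and neurons, stood at 98.2% and 94.8%, and its relative Ebf1 was at 4.23% and 1.19%. Bik, a pro-apoptotic BH3-only protein, had no B6 read among 59 in the forward cross and was at 95.9% in the reverse cross, while 8 other genes of the Bcl2 family had medians of 50.6% and 45.5%. Lims2, a focal adhesion protein, had no B6 read among 211 in the forward cross and stood at 97.5% in the reverse cross, and its paralog Lims1 was at 39.4% and 39.1%. Rsph1, a radial spoke protein of motile cilia, was at 98.2% and 93.9%, against 50.9% and 46.5% for Rsph9. Rpl28, of the large ribosomal subunit, was at 92.9% and 92.8%. H2-K2, a class I histocompatibility pseudogene, was at 97.9% and 96.8%, whereas H2-K1 beside it was at 24.9% and 27.4%. H2-D1 was at 16.03% and 17.8%, H2-T-ps had no CAST read among 54 and 61, and H2-DMa was at 50% and 51.3%.

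The remaining 7 members are predicted genes, 5 of them annotated as noncoding RNA, and no role is given for them. LOC108168339 had 3 of 627, 8 of 484 and 10 of 474 B6 reads in the forward and 1 of 110, 6 of 362, 1 of 274, 3 of 301 and 1 of 175 in the reverse embryos, so that every embryo was at 97.9% or more. Gm33843, a noncoding RNA gene on chromosome 10, was at 96.9, 94.3 and 93.2% in the forward embryos and between 98.4 and 100% in the 5 reverse embryos. Gm20098 held the lowest value of all members, 48.6% (interval 31.4 to 66.0%) in reverse embryo 1, where 18 of 35 reads came from B6, against 90.3% or more in its other embryos. Gm30090 stood at 98.5% and 92.7%, Gm6639 at 98.3% and 95.9%, and Gm31356 at 90.2% and 90%, the lowest pair of all members. Gm6878 lies antisense inside Ebf2, and their counts were nearly the same in each embryo (20 and 21, 19 and 19, and 15 and 15 reads in the forward embryos). Whether reads were counted by strand is not given in the sources used here, so the pair cannot be told apart and may be 1 signal.

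**Figure D2:**
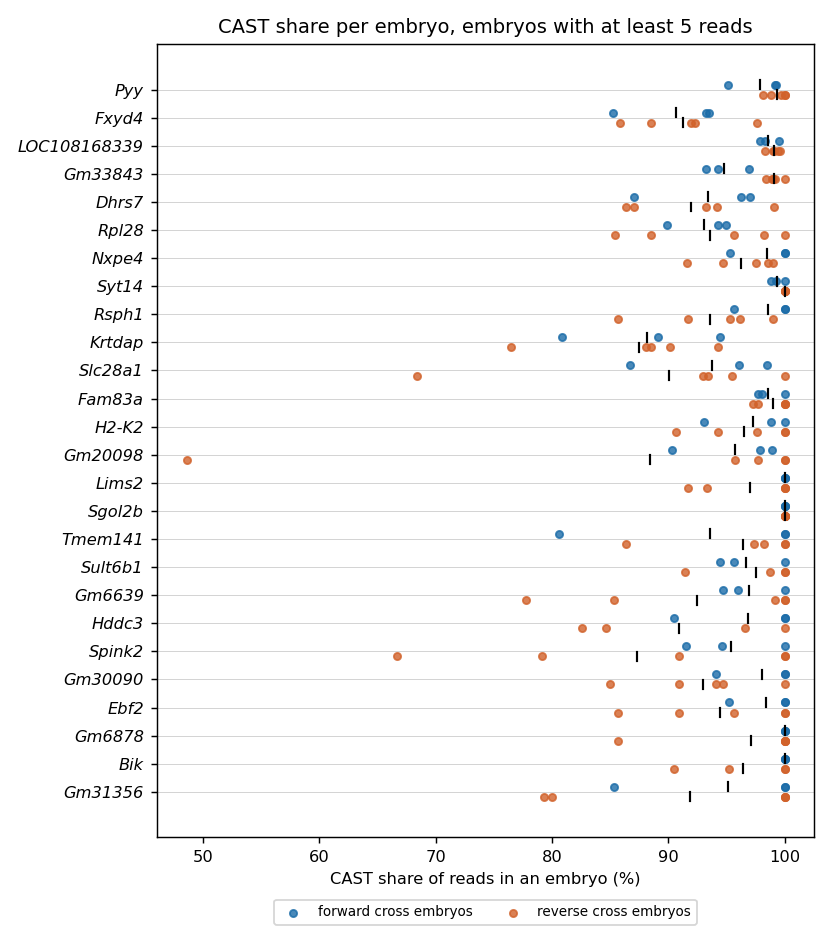
CAST share of reads (%, x axis) of each of the 26 genes (y axis) in the forward (blue) and reverse (orange) embryos, 1 point for each embryo with at least 5 reads and a black line at the mean of each cross. Most points lie between 90 and 100%, and the point farthest left is Gm20098 in reverse embryo 1 at 48.6%.

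The limit divides a continuous range. Just inside were Gm20098 (90.6% in its lower cross), Fxyd4 (90.6%), Krtdap (90.3%), Gm31356 (90%) and Spink2 (90%). Just outside were Rfx4 (89.6%), Bcl9l (88.1%), Gchfr (88.0%), Gm40728 (87.6%) and Gm39813 (87.0%), and Gm40728 lies within the span of Rfx4 on chromosome 10. A lower share from 80 to under 90% was found for 26 genes and one from 70 to under 80% for 44.

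The share was then read in embryos that had not taken part in the choice. For each embryo in turn, genes were chosen by the same rule from the other 7, which gave 19 to 25 genes, and their share was read in the embryo left out. Of 177 such values with at least 5 reads, 140 were at 90% or more (79.1%), against 1.54% of 66512 values over all genes with enough reads. The choices held largely the same genes, with 17 to 24 of the members each time. The 177 values are therefore not separate observations, and the percentages are a description, not a test. The median of the values in a left-out embryo ran from 92.9% in reverse embryo 2 to 98.99% in reverse embryo 1. Values under 50% appeared only in reverse embryo 1, where there were 2, the lower at 44.4% (Pla2g1b, which is not a member). Without reverse embryo 1 as a left-out embryo, no such value was under 60.0%.

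Total levels of the members were next compared between the crosses, on B6 and CAST reads together. The rule used these reads only in asking for at least 50 in each cross, which Gm31356, Gm6878 and Ebf2 passed narrowly in the forward cross with 51, 54 and 55. With edgeR's quasi-likelihood test, 0 of the 26 members passed an adjusted p of 0.1, and of 13471 genes tested 13 passed (0.0965%), 8 of them higher in forward and 5 higher in reverse embryos (4 and 5 with DESeq2's size factors). At an unadjusted p of 0.05, 2 members passed, but all genes passing it were not counted, so nothing is read from this. DESeq2 also called 0 members at an adjusted p of 0.1. The median log2 difference, forward minus reverse, was -0.04 over the members and -0.08 over all genes tested. The CPM ranges of the crosses did not overlap for 4 members, LOC108168339, Dhrs7, Slc28a1 and Lims2, and this was so for 6.37% of all genes tested. Against a background of 0.0965%, a count of 0 is not a result about the members.

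For Dhrs7, levels were 46.0 to 52.4 CPM in the forward and 71.8 to 163 CPM in the reverse embryos. Its log2 difference was -1.27 (SE 0.38, edgeR's quasi-likelihood test, adjusted p = 0.423). LOC108168339 was at 371 to 420 CPM in the forward and 73.1 to 226 CPM in the reverse embryos, a log2 difference of 1.13 (SE 0.37, adjusted p = 0.504, same test). Of all alternatives run, both differences passed only without reverse embryo 1, when edgeR called 165 of 12871 genes (1.28%): Dhrs7 then was at -1.44 (adjusted p = 0.0329) and LOC108168339 at 0.91 (adjusted p = 0.0752). Over the alternatives run, the adjusted p of edgeR or DESeq2 ran from 0.0329 to 0.999 for Dhrs7 and from 0.0752 to 0.999 for LOC108168339. Pyy varied widely between embryos, from 196 to 800 CPM in the forward and from 130 to 2249 CPM in the reverse embryos, with overlapping ranges and a log2 difference of -1.09 (SE 0.77, adjusted p = 0.765). This rests on single embryos: it was -0.43 without reverse embryo 3 and -1.60 without forward embryo 2. Sgol2b ran from 12.5 to 39.1 CPM and from 16.7 to 84.4 CPM, a log2 difference of -1.05 (SE 0.53, adjusted p = 0.696). It was -1.80 without forward embryo 2. Some marker levels also differed between the crosses. Trophectoderm and leukocyte markers did not overlap (above), the former narrowly, with a forward low of 4220 CPM and a reverse high of 4168 CPM. The 4 primitive endoderm markers did not overlap either, at 309 to 328 CPM in forward and 173 to 278 CPM in reverse embryos. The 5 epiblast markers did overlap, at 586 to 856 CPM and 409 to 771 CPM, as did red blood cell, uterine and cumulus markers. The part of these differences in the levels was not tested. The ranges of Fxyd4, 607 to 806 CPM and 516 to 911 CPM, overlapped as well. In such single embryos, fewer cells of a type and less RNA per cell cannot be told apart.

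**Figure D3:**
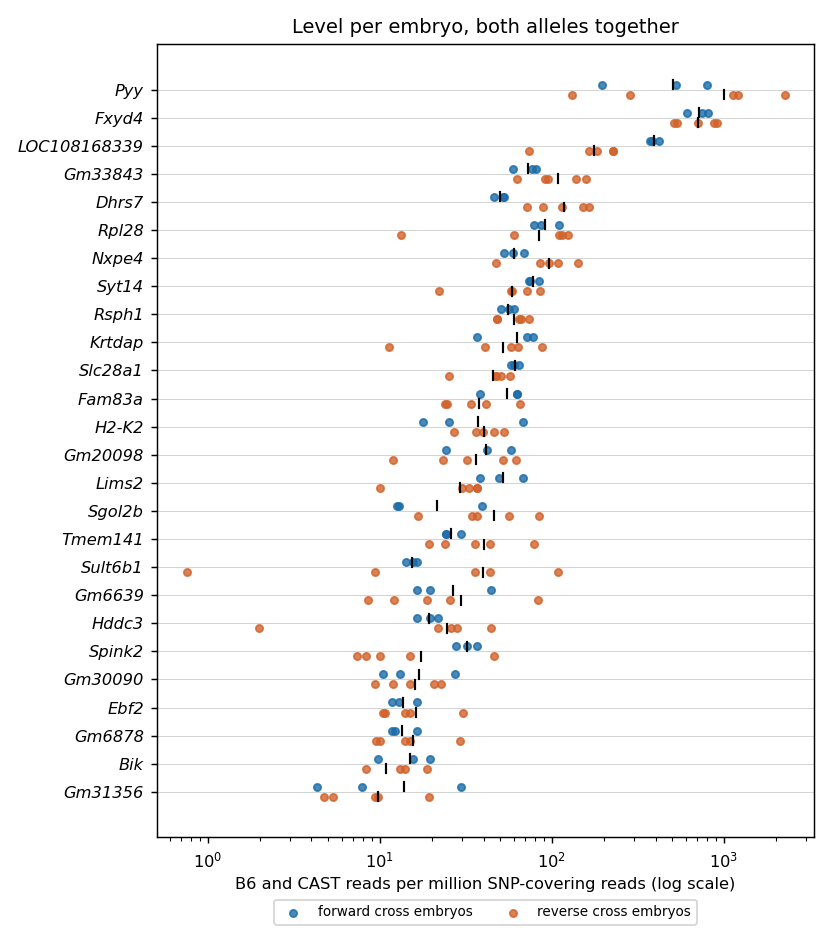
Level in CPM (both alleles together, x axis, log scale) of each of the 26 genes (y axis) in the forward (blue) and reverse (orange) embryos, with a black line at the mean of each cross. Levels should be compared within a gene only, since genes differ in SNPs and length; Dhrs7 is higher in all 5 reverse than in all 3 forward embryos, LOC108168339 lower, and Bik had 0 reads in reverse embryo 1, which is not drawn.

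The paternal and maternal alleles were also compared, with the strain of the allele in the model. The rule asked for a high CAST share in both crosses, which limits how far parental origin can move the share, so that the counts are given and nothing is read from them. By edgeR's quasi-likelihood test 0 of 26 members passed an adjusted p of 0.1, against 185 of 12920 genes tested (1.43%). An unadjusted p of 0.05 was passed by 1 member, and all genes passing it were not counted. With a term for each embryo, which compares the 2 alleles within an embryo, 1 member passed an adjusted p of 0.1 and 403 of all genes did (3.12%). The member was Gm33843 both times, whose CAST share was 94.8% with a cast father and 99.1% with a cast mother. With that term the comparison is one of the CAST share between the crosses, the value that chose the members, so that its p-values are not given. The level and the parental comparison rest on nearly the same cast reads of a member, which are paternal in the forward and maternal in the reverse cross, and are not independent of each other.

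The members were spread over the genome. A chromosome could be assigned to 24 of them, on 16 chromosomes, and LOC108168339 and Gm30090 could not be placed. Apart from the overlapping Ebf2 and Gm6878, only Slc28a1 and Hddc3 on chromosome 7 lay within 1000000 bases of each other, 764252 bases apart. The nearest genes with enough reads on each side of a member, 46 different genes at a median of 69.1 kb, included 0 members (0.31% of all genes with enough reads are members). These neighbours had median CAST shares of 44.8% and 45.1%, and 39 of the 46 were between 20 and 80% in both crosses. Genes in that range were not counted over all genes with enough reads, so the count is a description only.

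Some members stood beside genes that were also read more from cast. Tbc1d31, 15352 bases before Fam83a, was at 83.2% and 82.7%, and 9130401M01Rik, on the other side of Fam83a, was at 66.3% and 73.4%. Dmkn, 6833 bases from Krtdap and, like it, a gene of epidermal differentiation, was at 76.1% and 72.4%. Slc37a1, beside Rsph1, was at 63.0% and 80.2%. Other neighbours were read mostly from B6: Cpe, 640294 bases after Sgol2b, was at 6.67% and 6.43%.

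**Figure D4:**
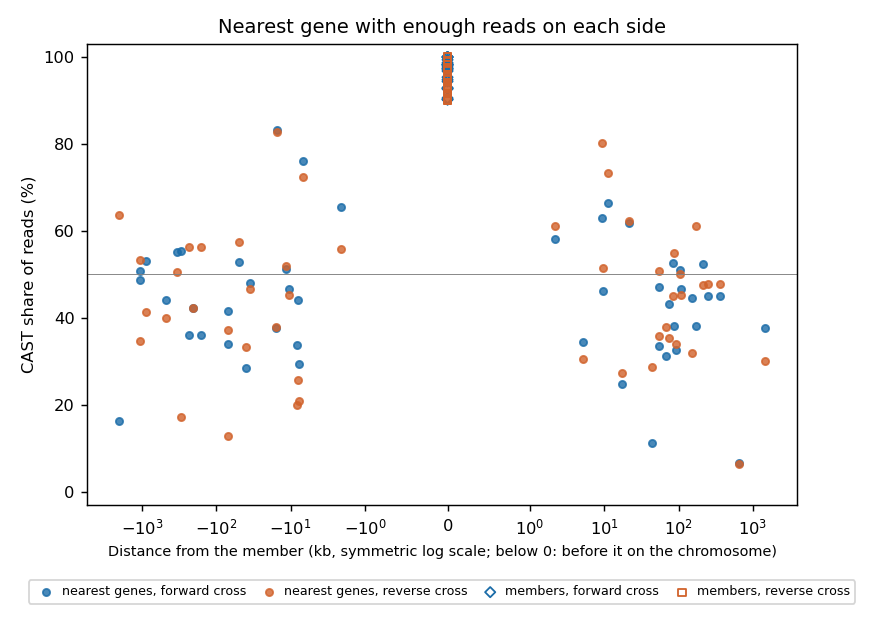
CAST share of reads (%, y axis) of the nearest gene with enough reads before and after each member, against its distance from the member (kb, symmetric log scale), in the forward (blue) and reverse (orange) cross. Members are the open symbols at distance 0, all at 90% or more, and the neighbours centre on 44.8% and 45.1%.

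Another annotated gene at different coordinates overlapped 16 of the 24 placed members, and without known strand a read from the shared stretch cannot be assigned to either. Such overlaps were not counted over all genes with enough reads, so the count is not a result about the members. Ube2s, on the opposite strand to Rpl28, was at 11.5% and 7.89%, far from Rpl28 itself. Man2a2, which overlaps Hddc3, was at 75.8% and 24.1%. Gpam, which spans Gm31356, was at 73.0% and 63.5%. These 3 overlapping genes had a lower CAST share than the member in both crosses. They are not members, and the rule chose members for a high share, so nothing is read from this. Ebf2 and Gm6878, which overlap each other, are both members, Ebf2 at 98.2% and 94.8% and Gm6878 at 100% and 97.3%. The part that overlaps had in the shares was not tested.

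Near-identical copies elsewhere in the annotated transcripts, at least 95% identical over at least 300 bases, were looked for because reads from copies can be assigned to the wrong gene. They were found for 3 of the 22 members with a transcript (13.6%), against 629 of 8102 genes with enough reads (7.76%) and 67 of 180 genes read almost only from B6 (37.2%). Rpl28 matched 4 other genes, with Rpl28-ps1 on chromosome 1 identical (100%) over 414 bases. H2-K2 matched H2-T-ps at 95.3% over 379 bases, and Nxpe4 matched Nxpe1-ps at 95.3% over 344 bases. The shares of these 3 genes are therefore uncertain, and the part that copies had in them was not tested.

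By kind of gene, 18 members are protein-coding, 18 of 7816 such genes with enough reads (0.23%, and 1.93% were read almost only from B6). Noncoding RNA genes gave 5 of 414 (1.21%, and 8.21% for B6). Predicted genes with Gm symbols, which overlap the noncoding ones, gave 6 of 304 (1.97%, and 10.2% for B6). Cytoplasmic ribosomal proteins gave 1 of 72, Rpl28 (1.39%), while 19 of the 72 were read almost only from B6 (26.4%). Histocompatibility genes gave 1 of 6, solute carriers 1 of 127 and pseudogenes 1 of 33. Members were 0 of 262 RIKEN genes, 0 of 159 zinc finger genes, 0 of 147 genes of mitochondrial proteins, 0 of 13 small nucleolar RNA hosts, 0 of 9 glutathione S-transferases, 0 of 9 antiviral genes and 0 of 5 genes of preimplantation multigene families. These counts are small and are given as a description.

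Related genes, grouped with the members by symbol or known function after the members were known, numbered 64 with enough reads. Their median CAST shares were 38.0% and 39.4%, against 44.3% and 44.3% for all genes with enough reads. Of the 64, 36 are relatives of Rpl28 alone, so the medians of 38.0% and 39.4% describe mainly that family and not relatives in general. The highest shares were 74.4% (Fxyd6, forward) and 73.1% (Dhrs11, reverse). That 0 of the 64 met the rule is not a result about them, since 0.31% of all genes did. Slc28a3, a nucleoside transporter like Slc28a1, was at 13.2% and 6.05%. The 36 other ribosomal proteins of the large subunit had medians of 36.8% and 37.1%, down to Rpl14 at 0.551% and 0.233%. Sult5a1 was at 56.6% and 64.4%, and Dhrs7b at 43.6% and 57.1%.

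**Figure D5:**
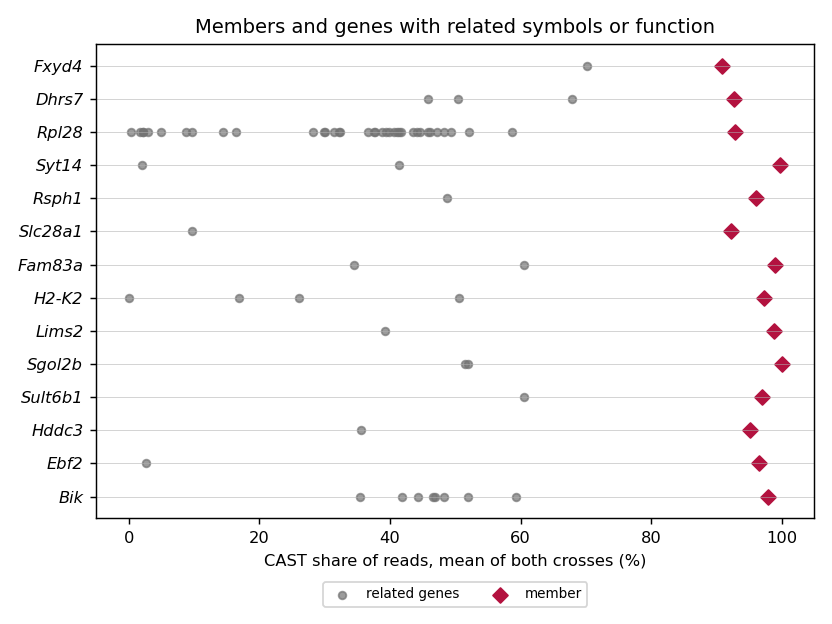
CAST share of reads (%, mean of both crosses, x axis) of members (red diamonds) and of genes grouped with them by symbol or known function (grey points, genes with enough reads), 1 line for each member that has such a gene. All grey points lie to the left of the members, and several, such as Syt17 and Ebf1, are near 0.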

How the data were processed

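The authors made polyA SMART-Seq2 libraries from single blastocysts, aligned them with STAR (version 2.5.2b in the submitters' processing notes, which also name SAMtools and bedtools) to mm10, a B6 genome, and left out 2 reverse embryos, which are not analysed here. They deposited, for each gene and embryo, whole-number counts of reads over SNPs assigned to B6 or CAST, with multi-mapping reads left out. B6 reads outnumbered CAST reads in every embryo. The part that alignment to a B6 genome had in the shares was not tested. Whether the counts are stranded is not given in the sources used here. No column was left unassigned.

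The members and gene lists were chosen with earlier results of these data known. Positions came from GENCODE M21 by symbol (18286 of 22810 genes), then RefSeq (2999) or a synonym (412). The 1113 genes without a match were kept. All 26 members are named.

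edgeR 4.0.16 (quasi-likelihood, TMM, genes not on X, Y or M with at least 10 reads in at least 1 library, Benjamini-Hochberg) compared B6 plus CAST reads of 3 against 5 embryos, and paternal with maternal reads in 16 allele libraries with a term for strain. In the level comparison, p-values measure the spread between single embryos. In the main parental comparison they measure the spread between allele libraries, and the pairing of both alleles of an embryo is left out. Alternatives used DESeq2 1.42.0, other scalings and filters, a replicate term, and each embryo left out. Copies were found with minimap2. Tests were checked on simulated counts, which held no strain difference and no pairing of alleles, so the check does not cover those features. Upper limits for a count of 0 used 3 reads.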

Additional observations from a re-analysis of the deposited data

Results flagged for a closer look

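In the 5 reverse embryos, 26 sets of CPM values and 24 sets of CAST shares of members were examined for a single embryo far from the rest, and 5 of each were marked. By chance about 1 in 20 of the CPM sets would be if CPM values were normally distributed, which was not checked. No such rate applies to the shares, which were chosen to be high and often stand at 100%, and the levels of Ebf2 and Gm6878 are nearly 1 set of counts. Reverse embryo 1 was the odd one in 6 of the 10: it also had the low trophectoderm marker level of 1317 CPM, and whether this has a part in the values was not tested. The shares of Slc28a1 (68.4%, next 93.0%) and Gm20098 (48.6%, next 95.7%) were low there, as was the level of Lims2 (9.97 CPM, next 30.03). The levels of Gm6639 (83.0 CPM, next 25.6), Ebf2 (30.6 CPM, next 15.02) and its antisense Gm6878 (29.2 CPM, next 15.02) were high there. In reverse embryo 2 the shares of Tmem141 (86.4%, next 97.4%) and Sult6b1 (91.4%, next 98.8%) were low. In reverse embryo 3 the share of Gm6878 was 85.7%, while its other reverse embryos were at 100%, and in reverse embryo 7 the level of Spink2 was high (46.2 CPM, next 15.01).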

How the results depend on the processing

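The number of genes read almost only from cast depended on the limits: 45 with at least 20 reads in each cross, 52 at a share of 80%, 12 at 95%, 2 at 99%, and 11 when every embryo with at least 5 reads had to reach 90%. It was 18 with at least 100 reads, 24 on assigned autosomes, and 19 to 25 with each embryo left out. With odds relative to the median gene of each cross, an alternative chosen after seeing the data, 29 genes met the rule, all 26 members among them, and 173 met the mirrored one. In the comparison of total levels, 0 members were called under all alternatives except without reverse embryo 1, where 2 were, so that leaving out embryos gave 0 to 2. The number of all genes called was less stable: 13, against 130 with DESeq2, 190 without a filter, 0 with at least 10 reads in every embryo, 192 on CAST reads only, and 3 to 165 with an embryo left out. The embryo numbers do not pair the crosses (correlations of same-numbered embryos 0.247, 0.028 and 0.247). A replicate block by number gave 18 genes and 0 members, and the Pyy difference turned to 0.41. In the parental comparison the 2 alleles of an embryo are pairs (correlations of 0.0622 to 0.606). With that pairing as a replicate block, 403 genes and 1 member were called, against 185 and 0. Without a filter 414 genes were called, with at least 10 reads in every embryo 76, and with an embryo left out 122 to 200, with 0 members each time. Depth limits the members with few reads most: Gm31356 rests on 51 and 70 reads, and a count under 5 in an embryo was not given a share.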

Other observations

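The X chromosome was left out of the rule because the embryos were not matched for sex. Of its 200 genes with enough reads, 1 met the same share limits, the pseudogene Llph-ps2, which is named here after its values were seen. It had 1 B6 and 340 CAST reads in the forward cross (99.7% CAST) and 1 B6 and 439 CAST reads in the reverse cross (99.8%).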
